A study of Homo sapiens with 4 samples.

Results

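Classical cadherins and the catenins that bind them build adherens junctions, the contacts that hold neighbouring epithelial cells together. The set described here was chosen by gene name: the cadherins CDH1 (E-cadherin), CDH2 (N-cadherin), CDH3 (P-cadherin) and CDH4 (R-cadherin), and the catenins CTNNA1 (α-catenin), CTNNB1 (β-catenin), CTNND1 (p120-catenin) and JUP (plakoglobin, or γ-catenin). These are 8 of the 57905 genes in the deposited tables. They were measured by RNA sequencing of poly(A) RNA from the human lung adenocarcinoma cell line A549, an established line, in 4 libraries with 1 library per condition. The study asked how DCBLD2, a transmembrane protein, bears on epithelial-mesenchymal transition (EMT), in which E-cadherin is a standard epithelial marker and N-cadherin a mesenchymal one.

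The 4 libraries came from stably infected A549 lines. The sc library is a scramble control, and the shDCBLD2 library carries by its label a short hairpin RNA against DCBLD2. The study's hairpins were held in a lentiviral vector with puromycin resistance. The 2 remaining libraries are an empty vector control and one whose label reads DCBLD2 overexpression, called the OE-labelled library below. By the study's methods the DCBLD2 coding sequence was held in a lentiviral vector with blasticidin resistance, but the transcript in that library goes against its label. The 2 controls are different lines and are not replicates of each other. The text of the study does not say which of its hairpins the shDCBLD2 library carries.

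At the membrane, the outer part of a classical cadherin binds cadherins of the neighbouring cell, while its tail binds β-catenin or plakoglobin, and p120-catenin binds nearer the membrane and limits uptake of the cadherin. α-Catenin couples β-catenin or plakoglobin to actin. β-Catenin that is not held at junctions is degraded by a complex of APC, axin, GSK3 and casein kinase, or enters the nucleus as the transcriptional arm of Wnt signaling. Plakoglobin, a close relative of β-catenin, is shared between adherens junctions and desmosomes.

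Counts on genes came to between 16601633 and 21537283 per library. Library sizes were corrected with TMM factors from edgeR, and differences are log2 ratios with a prior count of 2 added to each scaled count. Genes that differed 2-fold or more, with a 95% interval that left out a ratio of 1, were counted as changed. Since each condition has a single library, no difference could be checked against replicates and p-values were not computed. What is compared is libraries, not conditions, and every interval covers counting error only. Background shares refer to the 13966 genes with a mean library-scaled count (CPM) of at least 1. The targeted transcript, DCBLD2, stood at 504 CPM in sc, 197 CPM in shDCBLD2, 434 CPM in the empty vector library and 242 CPM in the OE-labelled library. It was thus lower in the OE-labelled library than in the empty vector library, against the label, and each direction drawn from that library below carries this limit. All 10 A549 markers examined were above the floor of 3 counts in every library, with summed levels between 21553 and 31966 CPM. Among them, EPCAM, an epithelial adhesion molecule, stood at only 1.21 to 5.33 CPM. PTPRC, which marks blood cells, and FAP, which marks fibroblasts, had no count in any library, but others of their lists were detected in all 4, among them COL1A1 with 639 to 1165 counts, THY1 with 64 to 160 and CD14 with 75 to 331. In bulk RNA, fewer cells that express a gene and less of its RNA per cell cannot be told apart.

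The transcripts of 7 members were well above the filter in these cells, and CDH3 was not, with 2 to 12 counts per library and a mean of 0.311 CPM. CDH1 and JUP, 2 of these 7, counted as lower in shDCBLD2 against sc, where 5.65% of all genes did, and 0 as higher, where 1.17% did. At 2-fold, 0 of the 7 members counted as higher or lower in the OE-labelled library against the empty vector, where 6.39% and 5.29% of all genes did. JUP was 1.80-fold higher there, and CDH4 was at 0.552 times its level in the empty vector library. The log2 ratios of CTNNA1, CTNND1 and CTNNB1 lay between -0.36 and 0.23 in all 3 comparisons.

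Promoters were read for 5 of the 8 members from RefSeq (GRCh38.p14), as 250 bases before and 50 bases after each annotated transcription start. The members not matched were CDH1, CDH3 and CTNND1. The 5 members read hold 11 promoters. The motif searched was CACCTG, read on both strands as CACCTG or CAGGTG, which is the E-box bound by the EMT repressors SNAI1, SNAI2, ZEB1 and ZEB2. It was found in 2 of the 11, once or more, against 20.6% of the 35116 promoters of that length in the table. The promoters below belong to JUP, CDH4 and CDH2, the members besides CDH1 whose transcripts differed most between shDCBLD2 and sc. They are written 5′ to 3′ on the strand of the gene, and capitals mark the E-box motif.
JUP, chr17:41785927-41786226, minus strand: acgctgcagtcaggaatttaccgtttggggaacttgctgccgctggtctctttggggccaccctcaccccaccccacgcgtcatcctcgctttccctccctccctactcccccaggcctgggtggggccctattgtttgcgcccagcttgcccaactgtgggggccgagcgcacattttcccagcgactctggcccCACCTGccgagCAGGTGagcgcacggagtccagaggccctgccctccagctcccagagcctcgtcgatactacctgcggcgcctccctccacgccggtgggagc
JUP, chr17:41786662-41786961, minus strand: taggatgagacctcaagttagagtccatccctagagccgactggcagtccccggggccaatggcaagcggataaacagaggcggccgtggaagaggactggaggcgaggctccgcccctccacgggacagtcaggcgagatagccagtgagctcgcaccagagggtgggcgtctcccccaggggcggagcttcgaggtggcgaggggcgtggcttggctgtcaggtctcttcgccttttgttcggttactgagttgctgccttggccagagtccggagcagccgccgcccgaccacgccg
CDH4, chr20:61499171-61499470, plus strand: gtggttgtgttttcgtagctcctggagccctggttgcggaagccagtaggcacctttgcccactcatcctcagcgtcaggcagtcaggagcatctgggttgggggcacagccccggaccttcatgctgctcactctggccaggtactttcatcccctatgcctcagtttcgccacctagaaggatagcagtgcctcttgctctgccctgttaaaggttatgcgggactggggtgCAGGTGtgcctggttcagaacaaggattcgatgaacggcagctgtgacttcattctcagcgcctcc
CDH2, chr18:28177081-28177380, minus strand: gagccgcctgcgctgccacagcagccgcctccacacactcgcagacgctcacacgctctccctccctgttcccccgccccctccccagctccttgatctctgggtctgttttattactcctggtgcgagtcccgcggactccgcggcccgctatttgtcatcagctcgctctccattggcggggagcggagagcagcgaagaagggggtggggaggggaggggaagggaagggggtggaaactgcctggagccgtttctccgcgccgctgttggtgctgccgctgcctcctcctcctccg

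The first JUP promoter holds 2 such motifs and the first CDH4 promoter holds 1. The second JUP promoter and the CDH2 promoter hold none, nor do the remaining promoters of CDH4, CDH2, CTNNB1 and CTNNA1. A match of these letters is a description of the sequence and does not show that a factor binds there. A second motif, CTTTGA, read on both strands as CTTTGA or TCAAAG, is the core bound by the TCF/LEF partners of β-catenin. It was present in 2 of the 11 promoters, and in 12.9% of all promoters in the table. Both belong to CTNNA1, overlap each other (chr5:138874980-138875279 and chr5:138875150-138875449) and share a site, so they are not separate instances.

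Levels of the members were compared with one another per length, as the deposited FPKM (scaled to the exonic size of the gene and to the library). The catenins were the more abundant family in every library. Their summed level was 172 FPKM in sc, 129 FPKM in shDCBLD2, 153 FPKM in the empty vector library and 201 FPKM in the OE-labelled library, against 26.9, 30.2, 26.2 and 25.2 FPKM for the cadherins. JUP had the highest level of the 8 genes in sc, in the empty vector library and in the OE-labelled library. In shDCBLD2 it ranked 4 of 8 and CTNNB1 ranked 1. CDH3 was the lowest in all 4 libraries.

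**Figure D1:**
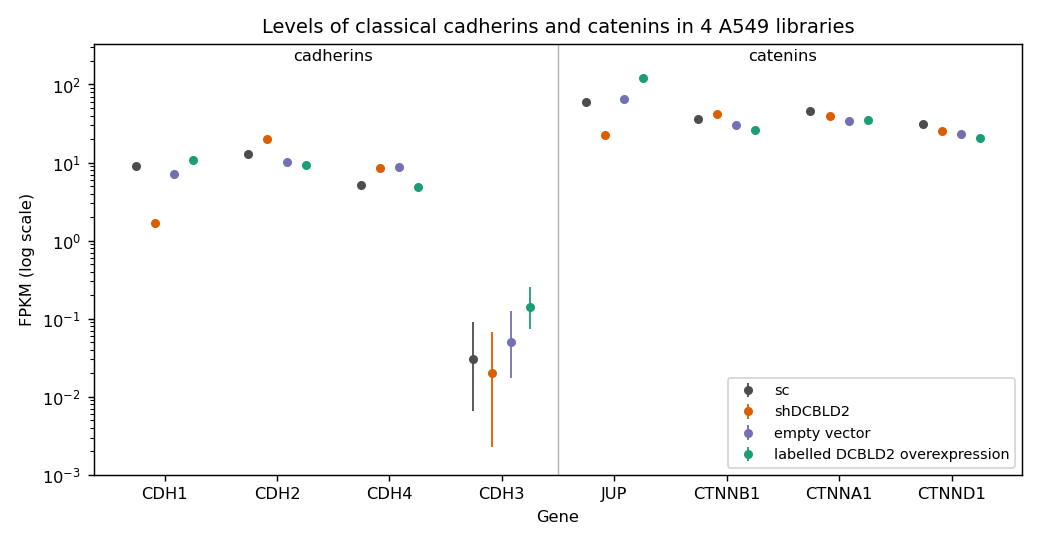
Deposited FPKM (log axis) of the 4 cadherins and 4 catenins in each of the 4 libraries. Bars are exact 95% counting intervals and are mostly smaller than the points. CDH1 and JUP are lowest in shDCBLD2, and JUP reaches 119.78 FPKM in the OE-labelled library.

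E-cadherin is the epithelial member of the cadherins. Its transcript, CDH1 (ENSG00000039068), had 1050 counts in sc, 220 in shDCBLD2, 832 in the empty vector library and 1103 in the OE-labelled library, or 8.93, 1.66, 7.22 and 10.8 FPKM. The shDCBLD2 library stood apart below the other 3, which lay within 7.22 to 10.8 FPKM. Against sc the log2 ratio in shDCBLD2 was -2.38 (-2.61 to -2.18), a level 0.191 times that of the control. Of the 13966 genes past the filter, 92 (0.659%) were as low or lower in that comparison. With the empty vector as control, the log2 ratio was -2.14, and over all alternatives it lay between -2.43 and -2.14.

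CDH1 was, in the OE-labelled library, 1.47-fold higher than in the empty vector library, with a log2 ratio of 0.56 (0.43 to 0.69), below the 2-fold rule. A ratio at least that high was held by 14.1% of all genes past the filter. Against sc the log2 ratio was 0.32. The empty vector was itself below sc by a log2 ratio of -0.24 (-0.38 to -0.11). DCBLD2 was lower than in its control both in shDCBLD2 and, against the label, in this library, while CDH1 lay below its control in the former and above it in the latter.

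N-cadherin is the cadherin of neural and mesenchymal cells. Its transcript, CDH2 (ENSG00000170558), had 1210 counts in sc, 2126 in shDCBLD2, 941 in the empty vector library and 767 in the OE-labelled library, or 12.8, 19.94, 10.16 and 9.33 FPKM. The highest level was that of shDCBLD2. The log2 ratio of shDCBLD2 to sc was 0.67 (0.57 to 0.78), a 1.59-fold difference that did not reach 2-fold. Only 3.75% of genes were as high in that comparison, in which few genes lay far above 0. CDH2 in the OE-labelled library was 0.907 times the empty vector (0.823 to 0.998), an interval that nearly reached no change.

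The balance of both cadherins followed from these values. The CDH2 level was 1.43 times that of CDH1 in sc (1.32 to 1.56) and 1.41 times in the empty vector library (1.28 to 1.55), so the intervals of the 2 controls overlapped. It was 12.0 times in shDCBLD2 (10.5 to 13.9). In the OE-labelled library it was 0.864 times (0.787 to 0.949), so that CDH1 exceeded CDH2 there and in no other library. As a share of the summed FPKM of the 4 classical cadherins, CDH1 made up 33.2% in sc, 5.50% in shDCBLD2, 27.5% in the empty vector library and 42.9% in the OE-labelled library. The sum itself stayed between 25.2 and 30.2 FPKM.

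**Figure D2:**
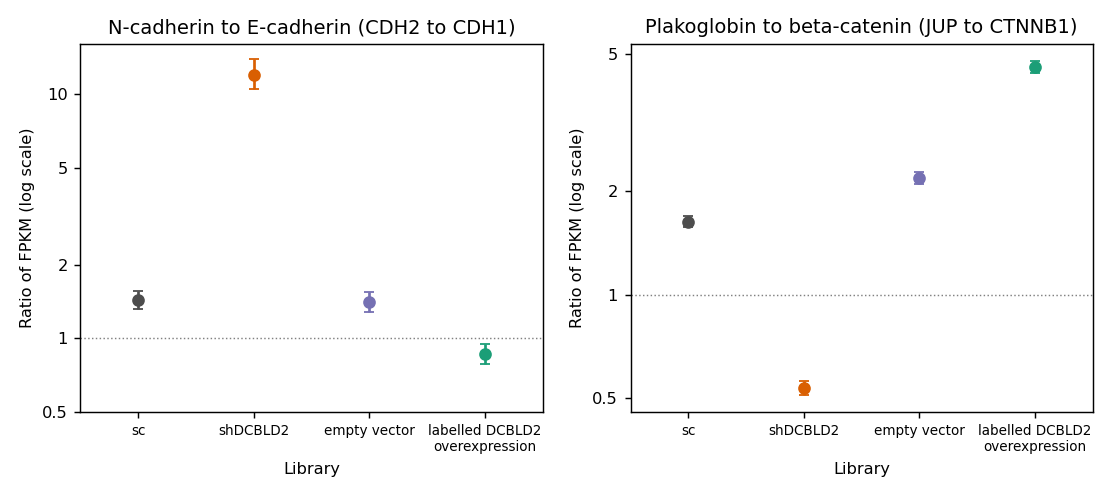
Ratio of FPKM (log axis) of CDH2 to CDH1, left, and of JUP to CTNNB1, right, in each library, with 95% counting intervals; the dotted line marks equal levels. The CDH2 to CDH1 ratio is 12.0 in shDCBLD2 and between 0.864 and 1.43 in the other 3, and the JUP to CTNNB1 ratio is under 1 in shDCBLD2, at 0.535, and above 1 in the others.

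R-cadherin is a close relative of N-cadherin with which it can pair. CDH4 (ENSG00000179242) split the libraries in another way. It had 656 counts in sc, 1243 in shDCBLD2, 1106 in the empty vector library and 548 in the OE-labelled library, or 5.11, 8.58, 8.79 and 4.91 FPKM. The shDCBLD2 and empty vector libraries were high, and sc and the OE-labelled library were low. The log2 ratio was 0.78 (0.64 to 0.92) for shDCBLD2 against sc and -0.86 (-1.01 to -0.71) for the OE-labelled library against the empty vector.

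The 2 controls differed by as much, with a CDH4 log2 ratio of 0.84 (0.70 to 0.99) for the empty vector against sc. With the controls exchanged, both differences were near 0, at -0.06 for shDCBLD2 against the empty vector and -0.01 for the OE-labelled library against sc. The values for CDH4 in both main comparisons thus rest on which control is used. P-cadherin is the basal and placental cadherin. CDH3 (ENSG00000062038) had 3, 2, 5 and 12 counts in sc, shDCBLD2, the empty vector and the OE-labelled library. Its log2 ratio in the OE-labelled library against the empty vector was 1.12 with an interval of -0.19 to 3.27 that included no change, and no difference was detectable at this depth.

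Plakoglobin was the member with the widest range among the catenins. JUP (ENSG00000173801) had 6752 counts in sc, 2874 in shDCBLD2, 7308 in the empty vector library and 11858 in the OE-labelled library, or 59.27, 22.38, 65.47 and 119.78 FPKM. The controls lay close together, with shDCBLD2 below them and the OE-labelled library above. The log2 ratio of shDCBLD2 to sc was -1.37 (-1.44 to -1.31), a level 0.386 times the control, and 389 genes (2.79%) were as low or lower. It was -1.58 with the empty vector as control.

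The JUP log2 ratio in the OE-labelled library, where DCBLD2 was lower than in the control, was 0.85 (0.81 to 0.89), or 1.80-fold. A ratio at least that high was held by 7.97% of genes. With sc as control it was 1.06, past the 2-fold rule, so the call depends on the control. The empty vector exceeded sc by 0.21 (0.16 to 0.25). JUP runs, in coordinates as deposited, on chromosome 17 from 39775692 to 39943183 on the minus strand. The submitters' processing notes name mm9 for human genes. The GRCh38.p14 promoters of JUP lie outside this stretch, so the deposited coordinates are not GRCh38, and their human build is not named. EIF1, which overlaps JUP on the opposite strand, had 10407, 12120, 12312 and 10810 counts in sc, shDCBLD2, the empty vector and the OE-labelled library. That order is unlike that of JUP. HAP1, which overlaps JUP on the same strand, had 67, 25, 53 and 137 counts. Like JUP, it was lowest in shDCBLD2 and highest in the OE-labelled library. KRT17, also on the same strand, had 1, 0, 0 and 24 counts. Since the use of strand in counting is not given, reads of overlapping stretches could have been counted for either gene. In GENCODE 29 transcripts, which need not be those used for counting, 0 JUP words of 31 bases occurred in another gene.

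β-Catenin varied far less. CTNNB1 (ENSG00000168036) had 4598 counts in sc, 5955 in shDCBLD2, 3708 in the empty vector library and 2863 in the OE-labelled library, or 36.43, 41.86, 29.99 and 26.11 FPKM. It was highest in shDCBLD2 and lowest in the OE-labelled library, the reverse of the order of JUP at both ends. The log2 ratios were 0.23 (0.18 to 0.29) for shDCBLD2 against sc and -0.22 (-0.29 to -0.15) for the OE-labelled library against the empty vector. The 2 controls differed by a similar amount, at -0.22 (-0.28 to -0.16). These are transcripts, and the amount or location of β-catenin protein was not measured by this assay.

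Because β-catenin and plakoglobin occupy the same site on a cadherin tail, their transcripts were set side by side. The JUP level was 1.63 times that of CTNNB1 in sc (1.57 to 1.69) and 2.18 times in the empty vector library (2.10 to 2.27). It was 0.535 times in shDCBLD2 (0.511 to 0.559) and 4.59 times in the OE-labelled library (4.40 to 4.78). Their summed level was 95.7 FPKM in sc, 64.2 FPKM in shDCBLD2, 95.5 FPKM in the empty vector library and 146 FPKM in the OE-labelled library. JUP made up 61.9%, 34.8%, 68.6% and 82.1% of these sums in that order.

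α-Catenin and p120-catenin, the actin linker and the stabilizer of surface cadherin, differed little. CTNNA1 (ENSG00000044115) stood at 45.21, 39.3, 33.8 and 35.08 FPKM in sc, shDCBLD2, the empty vector and the OE-labelled library. CTNND1 (ENSG00000198561) stood at 31.01, 25.52, 23.3 and 20.42 FPKM in the same order. Both were highest in sc. For CTNNA1 the interval of the OE-labelled library against the empty vector included no change, with a log2 ratio of 0.03 (-0.02 to 0.09). The CTNND1 ratio there was -0.21 (-0.28 to -0.14). In shDCBLD2 against sc the log2 ratios were -0.17 (-0.22 to -0.12) for CTNNA1 and -0.25 (-0.31 to -0.19) for CTNND1. Between the controls they were larger, at -0.36 (-0.41 to -0.31) and -0.35 (-0.41 to -0.29). With the empty vector as control for shDCBLD2 their signs turned, to 0.19 and 0.10, and with sc as control for the OE-labelled library that of CTNNA1 turned to -0.32.

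**Figure D3:**
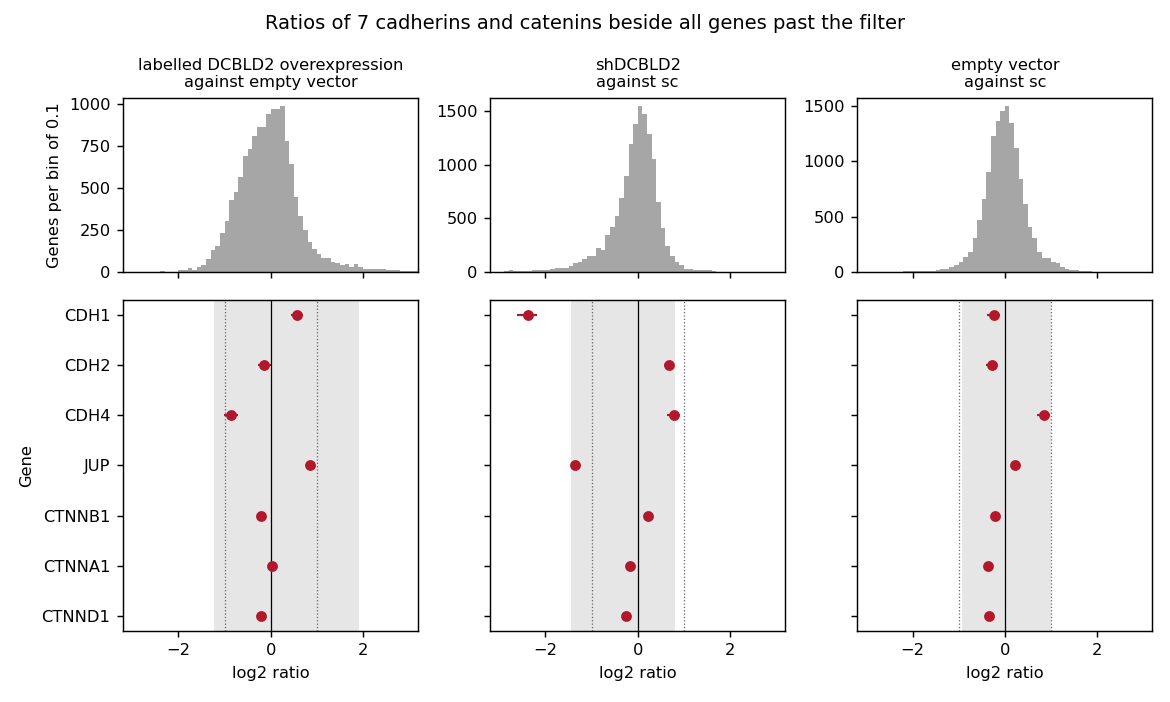
Upper panels show the number of genes per 0.1 of log2 ratio among the 13966 genes past the filter in 3 comparisons. Lower panels show the log2 ratios of the 7 members past the filter with 95% counting intervals, the central 95% of all genes in grey and 2-fold as dotted lines. CDH1 lies outside the grey band in shDCBLD2 against sc, at -2.38, and every member lies inside it in the OE-labelled library against the empty vector.

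Counted against all genes, the members stood as follows. At a 1.5-fold threshold, 4 of the 7 passed in shDCBLD2 against sc (CDH2 and CDH4 higher, CDH1 and JUP lower), against 16.5% of all genes. In the OE-labelled library against the empty vector, 2 of 7 passed (JUP higher, CDH4 lower), against 30.6% of all genes, a share near the background. Between the empty vector and sc, 0 of 7 counted as 2-fold higher or lower, against 2.21% and 1.89%, and 1 of 7 passed at 1.5-fold (CDH4), against 13.7%.

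The median log2 ratio of the 7 members was -0.17 in shDCBLD2 against sc, -0.14 in the OE-labelled library against the empty vector, and -0.24 between the controls. The medians of all genes past the filter were 0.0081, -0.044 and -0.0068. The central 95% of all genes ran from -1.43 to 0.788 in the first of these, from -1.21 to 1.89 in the second and from -0.913 to 0.979 in the third. The median hid opposite directions among the members, since CDH1 and JUP lay on one side of 0 and CDH2, CDH4 and CTNNB1 on the other in both main comparisons. These comparisons share no library, but CDH4 rests on which control is used, with log2 ratios of -0.06 and -0.01 when the controls were exchanged. For the OE-labelled library against the empty vector, CDH2 and CTNNB1 stood at only -0.14 and -0.22. The controls differed from each other by a similar or larger amount, at -0.27 and -0.22. DCBLD2 itself lay below its control in both main comparisons, against the label in the overexpression library.

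The genes whose pattern over the 4 libraries was nearest to that of CDH1 or JUP were sought among the 9155 genes with a mean of at least 10 CPM, by the Euclidean distance of centred log2 CPM. For CDH1 the 2 nearest were CP, which encodes ceruloplasmin, and ANG, which encodes angiogenin, at distances of 0.342 and 0.465. CP stood at 28.9, 5.28, 18.7 and 37.6 CPM in sc, shDCBLD2, the empty vector and the OE-labelled library. For JUP the 3 nearest were SLC9A3R2, a scaffold protein of the apical membrane, CA11, a carbonic anhydrase-related protein, and SMOC1, a secreted calcium-binding protein, at 0.207, 0.246 and 0.253. SLC9A3R2 stood at 75.3, 35.4, 95.3 and 167 CPM. Each pattern has only 4 points.

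Other genes of the pathway were followed as lists. Of 18 other cadherins, 5 passed the filter. Of all genes past it, 5.65% counted as lower in shDCBLD2 against sc. In the OE-labelled library against the empty vector, 6.39% counted as higher and 5.29% as lower. In shDCBLD2 against sc, 3 counted as lower: CDH17 (intestinal, or LI-cadherin) with 23 against 149 counts and a log2 ratio of -2.73 (-3.54 to -2.20), CDH6 (kidney cadherin) with 4 against 19 counts, and CDH16 (also kidney) with 1 against 40 counts, a log2 ratio of -3.90 with a wide interval of -10.80 to -2.90. The same 3 genes counted as higher in the OE-labelled library against the empty vector, with log2 ratios of 3.89 (3.35 to 4.82) for CDH17, 2.38 (1.69 to 3.54) for CDH6 and 1.88 (1.19 to 2.91) for CDH16. CDH19 counted as lower there, with 2 against 28 counts and a log2 ratio of -2.80 (-6.77 to -1.67). CDH6 stood at 0.971, 0.185, 0.708 and 4.18 CPM in sc, shDCBLD2, the empty vector and the OE-labelled library. CDH16 stood at 2.04, 0.0464, 0.872 and 3.51 CPM in that order. The filter is a mean over all 4 libraries, and CDH6 and CDH16 passed it only through the OE-labelled library. Calling them higher in that library, against either control, is thus in part set by the filter.

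The control mattered for these genes as well. CDH17 stood at 7.62 CPM in sc and 0.981 CPM in the empty vector library, a log2 ratio of -2.83 (-3.75 to -2.25), and at 1.07 CPM in shDCBLD2, close to the empty vector. CDH16 was lower in the empty vector library than in sc by a log2 ratio of -1.14 (-2.17 to -0.36). With the controls exchanged, CDH17 in shDCBLD2 stood at 0.11 (-0.83 to 1.10) and CDH16 in the OE-labelled library at 0.75 (0.18 to 1.40), and neither counted as changed, while CDH6 still did in both comparisons. The highest level among the 4 that counted as changed was 4.11 FPKM, for CDH17 in the OE-labelled library, where CDH1 stood at 10.8 FPKM. CDH24, the remaining gene past the filter, reached 5.58 FPKM there and did not count as changed. Of the 6 other catenins and relatives, 3 passed the filter. CTNNAL1, which encodes α-catulin, a relative of α-catenin, counted as lower in the OE-labelled library, at 12.5 against 35.1 CPM and a log2 ratio of -1.48 (-1.72 to -1.26). For shDCBLD2 and sc its log2 ratio was 0.94 (0.81 to 1.09), short of 2-fold, and the controls differed by only 0.20 (0.04 to 0.36).

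Desmosomes share JUP with adherens junctions. Of 11 desmosomal genes 6 passed the filter, and DSG1, DSG3 and DSC1, the desmosomal cadherins of stratified epithelium, had no count in any library. PKP2, a plakophilin that links the cadherins to desmoplakin, counted as lower in shDCBLD2 against sc, with 33 against 136 counts and a log2 ratio of -2.12 (-2.78 to -1.63). DSP, which encodes desmoplakin, stood at -0.56 (-0.67 to -0.46) and PKP3 at 0.05 (-0.05 to 0.15). PKP2 was the only gene of the 6 that counted as changed there, where 5.65% of all genes counted as lower. The list's median was -0.60, with 5 of 6 genes below 0. Of the 6, 0 counted as changed in the OE-labelled library against the empty vector. Of all genes, 6.39% counted as higher there and 5.29% as lower, so a count of 0 is near the background. The list median was 0.58 and 5 of 6 lay above 0. The highest was DSC3, with 53 against 31 counts and a log2 ratio of 0.88. Against sc, the empty vector had a median of -0.41. With the controls exchanged, DSC3 counted as higher in the OE-labelled library, at 1.49 (0.83 to 2.38). It then counted as lower in shDCBLD2, at -1.26 (-2.40 to -0.43), where PKP2 still did, at -1.72. The counts of changed desmosomal genes thus depend on the control.

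The 14 junction partners, which tie cadherins to actin, microtubules and nectins, all passed the filter. In the OE-labelled library 2 counted as higher than in the empty vector library and 0 as lower, against 6.39% and 5.29% of all genes. The 2 were SHROOM3, an actin-binding protein of the apical junction, 3.28-fold (2.75 to 4.01), a log2 ratio of 1.71, and CAMSAP3, which anchors microtubules at junctions, with 1.54 (1.26 to 1.85). CAMSAP3 stood at 11.8 CPM in sc, 6.49 CPM in shDCBLD2, 7.41 CPM in the empty vector library and 21.7 CPM in the OE-labelled library. SHROOM3 stood at 16.1 CPM in sc, 7.79 CPM in shDCBLD2, 8.23 CPM in the empty vector library and 27.3 CPM in the OE-labelled library, so part of its range lay between the controls. It was also the 1 partner that counted as lower in shDCBLD2 against sc, with -1.03 (-1.32 to -0.77), where 5.65% of all genes did. All of these calls end with the controls exchanged. The log2 ratios to sc in the OE-labelled library were then 0.76 (0.55 to 0.98) for SHROOM3 and 0.87 (0.63 to 1.12) for CAMSAP3, and SHROOM3 in shDCBLD2 stood at -0.08 (-0.40 to 0.25). In shDCBLD2 against sc, VCL, which encodes vinculin, the partner of α-catenin under tension, stood at 0.62 (0.58 to 0.67). LIMA1, another actin-binding partner, stood at 0.71 (0.39 to 1.06) there, and neither reached 2-fold. VCL reached 1.01 (0.96 to 1.06), past 2-fold, with the empty vector as control.

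None of the 14 genes of β-catenin turnover counted as changed in any of the 3 comparisons, in which 1.17% to 6.39% of all genes counted in each direction, so that a count of 0 is near the background. Their medians were 0.05 in shDCBLD2 against sc, -0.07 in the OE-labelled library against the empty vector, and -0.15 between the controls. AXIN2, a scaffold of the destruction complex and itself a target of Wnt signaling, had 196 counts in sc, 119 in shDCBLD2, 158 in the empty vector library and 243 in the OE-labelled library. Its log2 ratios were -0.85 (-1.20 to -0.52) in shDCBLD2 against sc and 0.77 (0.48 to 1.07) in the OE-labelled library against the empty vector, both short of 2-fold. CSNK1E, a casein kinase, came closest to the rule in the OE-labelled library, at 0.99 (0.91 to 1.07). With sc as control it counted as higher there, at 1.07 (0.99 to 1.16), and APC, the scaffold of the complex, as lower, at -1.41 (-1.82 to -1.05). GSK3B, the kinase that marks β-catenin for degradation, stood at 0.09 (-0.04 to 0.22) in shDCBLD2 against sc and -0.39 (-0.57 to -0.22) in the OE-labelled library, while the empty vector and sc differed by -0.40. The 2 inhibitors of nuclear β-catenin, CTNNBIP1 and CBY1, and the 8 genes of cadherin shedding and uptake included none that counted as changed, again near the background. Of the latter, SRC, a kinase that acts on junctions, was lowest in shDCBLD2 against sc, at -0.68 (-0.72 to -0.64), and CTNNBIP1 stood at -0.67 there and at -1.06 (-1.28 to -0.86), past 2-fold, with the empty vector as control.

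**Figure D4:**
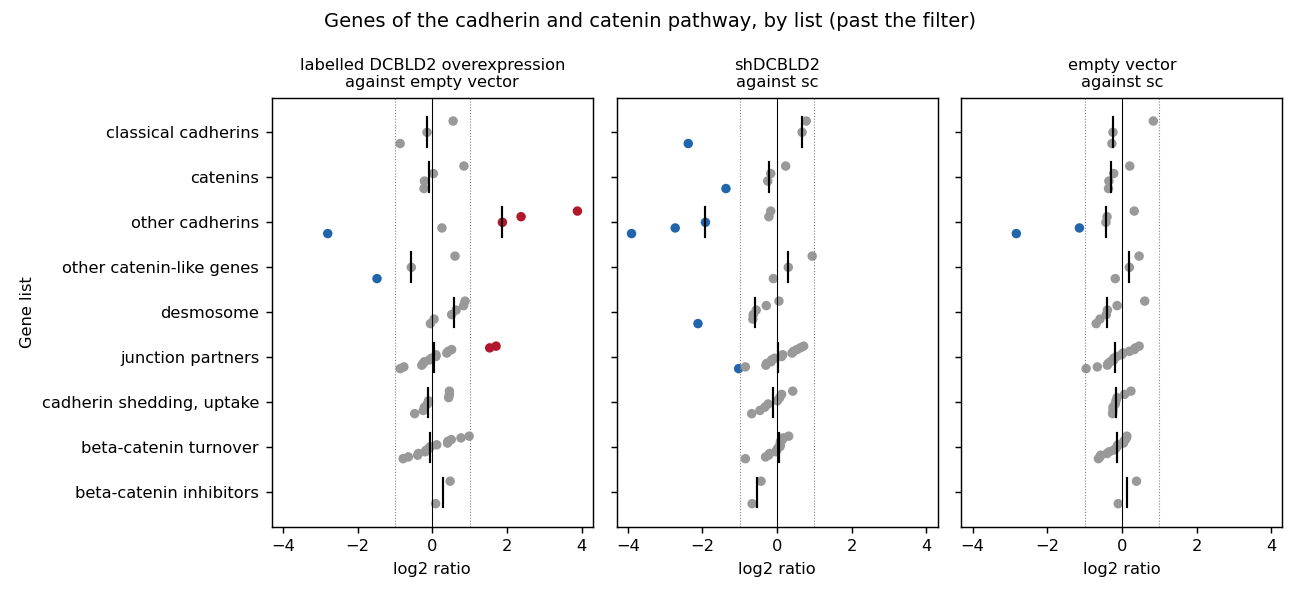
Log2 ratios of genes past the filter in each list of the cadherin and catenin pathway, in 3 comparisons. Red and blue points counted as higher and lower, grey points did not, black bars are list medians and dotted lines mark 2-fold. The 14 genes of β-catenin turnover lie within 2-fold in every panel. CDH17, CDH16 and CDH6 lie beyond it in opposite directions in the left and middle panels. CDH6 and CDH16 passed the filter only through the OE-labelled library. CDH17 in shDCBLD2 stood at 0.11 with the empty vector as control.

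Repressors of CDH1, and its activators together with other epithelial regulators, were followed as 2 lists. Beside the counts of both, 1.17% of all genes counted as higher and 5.65% as lower in shDCBLD2 against sc. For the OE-labelled library against the empty vector these shares were 6.39% and 5.29%, and between the controls 2.21% and 1.89%. Of 9 repressors 8 passed the filter, and they did not move together. SNAI2 (Slug) counted as higher in shDCBLD2 against sc, at 8.95 against 4.24 CPM, with a log2 ratio of 1.06 (0.70 to 1.47). TWIST1 counted as lower, with 13 against 34 counts and -1.39 (-2.57 to -0.57). SNAI1 (Snail) stood at 0.77 and ZEB1 at 0.24. In the OE-labelled library against the empty vector, TWIST2 counted as lower with -1.49 (-1.83 to -1.19) and SNAI1 with -1.09 (-1.54 to -0.71), while SNAI2 stood at 0.97. Between the controls SNAI2 counted as lower and TWIST1 and TWIST2 as higher, at -1.23, 1.01 and 1.01, so these 3 differ by 2-fold between control lines alone. With the controls exchanged, TWIST2 in the OE-labelled library no longer counted, at -0.48 (-0.85 to -0.14). SNAI1 in shDCBLD2 then counted as higher, at 1.30 (1.05 to 1.57), and TWIST2 there as lower, at -1.39 (-1.69 to -1.12). ZEB1 in the OE-labelled library counted as lower than in sc, at -1.53 (-1.97 to -1.16).

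Of 8 activators and epithelial regulators 3 passed the filter. GRHL2, a factor that sustains CDH1 transcription in many epithelia, had 2 counts in shDCBLD2 and 0 in each other library, and OVOL1 and ESRP1 had at most 2 counts in any library. ELF3, an epithelial ETS factor, stood at 166 CPM in sc, 81.5 CPM in shDCBLD2 and 248 CPM in both other libraries. It counted as lower in shDCBLD2, with a log2 ratio of -1.02 (-1.11 to -0.94). FOXA1, a pioneer factor of lung epithelium, counted as higher in the OE-labelled library, at 23.6 against 11.5 CPM and 1.02 (0.78 to 1.28), but not against sc, where it was 1.94-fold higher.

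Markers of other cells and of the line itself moved beside these results. Of the 10 A549 markers, 4 counted as lower in shDCBLD2 against sc (EPCAM, KRT19, AKR1C1 and ALDH3A1), against 5.65% of all genes. The list median was -0.82. In the OE-labelled library, 2 counted as higher (EPCAM and KRT19), against 6.39% of all genes, with a median of 0.61. With the controls exchanged, KRT19 still counted in both comparisons, and EPCAM, AKR1C1 and ALDH3A1 no longer did. TXNRD1 then counted as lower in the OE-labelled library, at -1.35. Of 11 HEK293-like markers, 9 passed the filter. In the OE-labelled library 4 of these (NEFM, GAL, NEFL and LIN28B) counted as higher, against 6.39% of all genes. NEFM had 221 counts there and 0 in the empty vector library. In shDCBLD2 against sc, NEFL and GAL also counted as higher and PAX2 as lower, against 1.17% and 5.65% of all genes. With the controls exchanged, NEFL and GAL in shDCBLD2 no longer counted, at 0.53 and 0.93, and PAX2 still did. In the OE-labelled library NEFM, GAL, NEFL and LIN28B still counted as higher than in sc. PAX2 and PCSK1N then did as well, at 2.06 and 1.51, and PEG10 counted as lower, at -1.42. The summed level of this list was 289 CPM in sc, 420 CPM in shDCBLD2, 231 CPM in the empty vector library and 280 CPM in the OE-labelled library, and 8 of the 11 genes were above the floor in sc too. PEG10 alone made up 218, 345, 139 and 81.2 CPM of these sums in that order. Summed per length, the list stood at 71.2, 89.7, 71.6 and 126 FPKM, highest in the OE-labelled library, and its median log2 ratio there against the empty vector was 0.96. Of 10 fibroblast-like markers 8 were above the floor in the OE-labelled library and 5 or 6 in the others, with summed levels of 38.2 CPM in sc, 59.4 CPM in shDCBLD2, 45.5 CPM in the empty vector library and 82.3 CPM in the OE-labelled library. Past the filter were 4 of them, of which COL1A2 and COL3A1 counted as higher in the OE-labelled library against the empty vector, with a list median of 2.04. Of all genes, 6.39% counted as higher there. COL1A2 had no count in the empty vector library. The filter is a mean over all 4 libraries, so genes near 0 elsewhere can pass it through the OE-labelled library, as NEFM did. Calls as higher there, and the medians of the HEK293-like and fibroblast-like lists, are thus in part set by the filter. POSTN, which encodes periostin, had 42 counts there and 0 in each other library. Of 10 blood-like markers 4 or 5 were above the floor in each library, with sums of 5.61 to 24.0 CPM. Their part in the values of CDH1, JUP and the other cadherins was not tested.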

How the data were processed

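Poly(A) RNA of 4 A549 libraries was sequenced, 1 per condition, and samples were grouped by their labels. For 57905 genes, the authors deposited raw counts of reads, and FPKM values scaled to exonic size and library total. The 4 sample files held the same values as the series matrix, and 0 sample columns were left unused. The aligner, the counting program and the use of strand are not given in the sources used here. The submitters' processing notes name the build mm9 although the genes carry human Ensembl identifiers. The deposited position of JUP does not hold its GRCh38.p14 promoters, so the coordinates are not GRCh38, and their human build is not named.

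Library totals ran from 16601633 to 21537283 counts and set the precision of each value. TMM factors (1.02 for sc, 1.00 for shDCBLD2, 0.981 for the empty vector and 0.994 for the OE-labelled library, whose label reads DCBLD2 overexpression) came from edgeR 4.0.16 in R 4.3.3. Ratios used a prior count of 2 and 95% intervals by the exact Clopper-Pearson method on 1 count's share of a pair, computed in Python 3.11.15 with numpy 2.4.6, scipy 1.17.1 and pandas 2.3.3. Reads are not independent molecules, so intervals and the floor of 3 counts cover counting error only. The rule for calls was tried on simulated counts with known changes. These held counting error only, so the trial does not cover differences between lines.

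Compared were shDCBLD2 with sc, the OE-labelled library with the empty vector, and both controls with each other. Alternatives were DESeq2 1.42.0 size factors, library totals, upper-quartile factors, prior counts of 0.5 and 5, a 1.5-fold threshold, no filter or at least 5 CPM, counts thinned to the smallest library, the deposited FPKM and the other control library. TMM factors without the OE-labelled library, and the other control library for genes of the lists, were added after seeing the data. Named genes are the 8 members, from each list the 2 highest and 2 lowest ratios past the filter in each comparison with any other changed gene of a list with 5 or fewer, the 3 nearest patterns of each changed member (1 of which is not reported here), and DCBLD2; genes at 0, EIF1, HAP1 and other values outside this rule were named after they were seen. The members and lists were chosen with earlier results of these data known.

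Words of 31 bases from GENCODE 29 transcripts showed no sequence shared between any 2 members. The share of a member's words also found in another gene was 7.65% for CDH1, 2.55% for CDH2, 7.86% for CTNNA1, 4.91% for CTNND1, 14.8% for CDH3, and 0 for JUP.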

Additional observations from a re-analysis of the deposited data

How the results depend on the processing

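No paired analysis was possible because each condition has 1 library and the labels give no replicate numbers, and for the same reason no library could be left out. Of 200 values of the 8 members under alternatives, 176 stayed within the counting interval of the reported value and 24 moved outside it. Exchanging the controls moved all 7 members past the filter outside their intervals in both main comparisons. CDH3, whose interval is wide, stayed inside. The called values were only those of CDH1 and JUP in shDCBLD2 against sc, and 0 of them changed sign. Among values not called, the sign changed for CTNNA1 in both main comparisons, and for CDH4 and CTNND1 in shDCBLD2 against sc. At a 1.5-fold threshold, 2 members counted as changed in the OE-labelled library against the empty vector (1 higher, 1 lower), 4 in shDCBLD2 against sc and 1 between the controls, in place of 0, 2 and 0, by construction of a lower threshold. With sc as control for the OE-labelled library, 1 member (JUP, at 1.06) counted as higher; the cause was not tested. The log2 ratio of CDH4 went from 0.78 to -0.06 in shDCBLD2, and went from -0.86 to -0.01 in the OE-labelled library, with the controls exchanged. Upper-quartile factors shifted the median of all genes by 0.12 in the OE-labelled library against the empty vector; relative to the median, JUP stood at 0.90 and CDH1 at 0.60 there. CDH3 was too low for a difference to be detected at this depth.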
